A study of Homo sapiens with 11 samples.

Results

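The changes described here are those that followed EWS-FLI1 knockdown in A673sh cells that carried a scrambled control shRNA. A673sh is a human Ewing sarcoma (ES) cell line with a stably integrated, doxycycline-inducible shRNA against EWS-FLI1. Transcripts were measured on the Affymetrix HG-U133 Plus 2 array, whose probe sets each report 1 transcript region. The comparison used 4 of the 11 arrays of the series: 2 of sh-scrambled cells without doxycycline and 2 of sh-scrambled cells with 1 µg/ml doxycycline for 48 h. Both groups were of the same line and had been transiently transfected with pRS-sh-scrambled, so by the labels they differed only in the drug, and they stand for a single line. Since doxycycline always came with the knockdown in this comparison, the effect of the drug and that of losing EWS-FLI1 cannot be told apart. Of 12326 genes tested, 998 (8.1%) were higher and 923 (7.49%) were lower with doxycycline, at an adjusted p under 0.05 in limma and a log2 fold change past 1 (2-fold). "Rose" and "fell" are used below only for genes that passed both limits, and "level" means the deposited log2 value of a gene's probe set. The precision is limited by having 2 arrays a group. Because the labels do not say whether replicates were separate cultures, p-values measure only the spread between replicate arrays, which may be technical. That spread was pooled over all groups of the series with 2 arrays, and limma shares it in part between genes.

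EWS-FLI1 joins the N-terminal part of the RNA-binding protein EWSR1 to the DNA-binding ETS domain of FLI1. The fusion protein binds ETS motifs and repeats of GGAA and acts as an activator at some genes, while many others rise when it is removed. ES cells are small round cells with neural and primitive mesenchymal features, and their cell of origin has been sought among mesenchymal stem cells and neural crest derivatives.

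The level of FLI1, which reports the targeted transcript through the part of FLI1 kept in the fusion, was 8.84 and 8.71 without doxycycline and 6.92 and 6.93 with it. Both doxycycline arrays were below both control arrays, and the fitted change was −1.85 on the log2 scale (standard error (SE) 0.10, adjusted p = 1.59e-06, limma). The other probe sets of FLI1 changed by −1.18 and −0.59. The ES marker CD99, a surface glycoprotein, stood at 11.58 and 11.80 without doxycycline and at 11.30 and 11.29 with it, and did not pass the fold change limit. NKX2-2, a homeobox factor used to diagnose ES, fell from 9.30 and 9.32 to 7.23 and 7.18. Of the blood cell markers, 3 of 16 were bright enough to be tested and none was called, with log2 fold changes from −0.07 to 0.13, and of the epithelial markers 4 of 15 were tested and none was called. The arrays themselves were alike in distribution, with medians of 5.14 to 5.17. The 2 control arrays correlated at 0.991 and the 2 doxycycline arrays at 0.996 over the genes tested, against 0.858 to 0.865 across the groups.

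Rises were larger than falls. The median log2 fold change was 1.65 among genes called higher, −1.42 among those called lower and −0.06 among all genes. Past a log2 fold change of 3 (8-fold) were 146 genes that rose and 10 that fell, and past 5 were 27 that rose and 0 that fell. A median replicate SD of 0.09 without and 0.06 with doxycycline stood against these changes, and 1723 of the 1921 called genes moved by more than 1 in both pairs of arrays with the same replicate number. Many rising genes started low. On both control arrays 275 of the 998 were below the array median, and 33 went from below the lower quartile of all probe sets to above the upper quartile. In the opposite direction 1 gene, APELA, went from above the upper to below the lower quartile. The size of a change that starts or ends near the floor of the array is less certain than its direction. Size also depends on the probe set where a gene has several. The one that varied most over the arrays by interquartile range was used, and with the brightest one instead 859 of the 998 and 765 of the 923 genes remained called. Where that choice ended the call of a gene or moved its value by more than 1.5 times, the value of the brightest probe set is given beside it. Leaving out 1 array ended the calls of 7 to 15 of the 498 genes tried. Of genes described here that lie just past the limit, PDE4A, FADS2, SYT1, ELF3, JUNB, HOXD10, BMF, STC2 and HPRT1 then stood between −0.99 and −0.86 or between 0.95 and 0.98, and S100A2 just under 1. The array was sh-scrambled replicate 1 for FADS2, sh-scrambled replicate 2 for ELF3, JUNB and S100A2, doxycycline replicate 1 for HOXD10 and BMF and doxycycline replicate 2 for STC2. For PDE4A it was sh-scrambled replicate 1 or doxycycline replicate 2, for SYT1 sh-scrambled replicate 2 or doxycycline replicate 1, and for HPRT1 replicate 1 of either group.

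**Figure D1:**
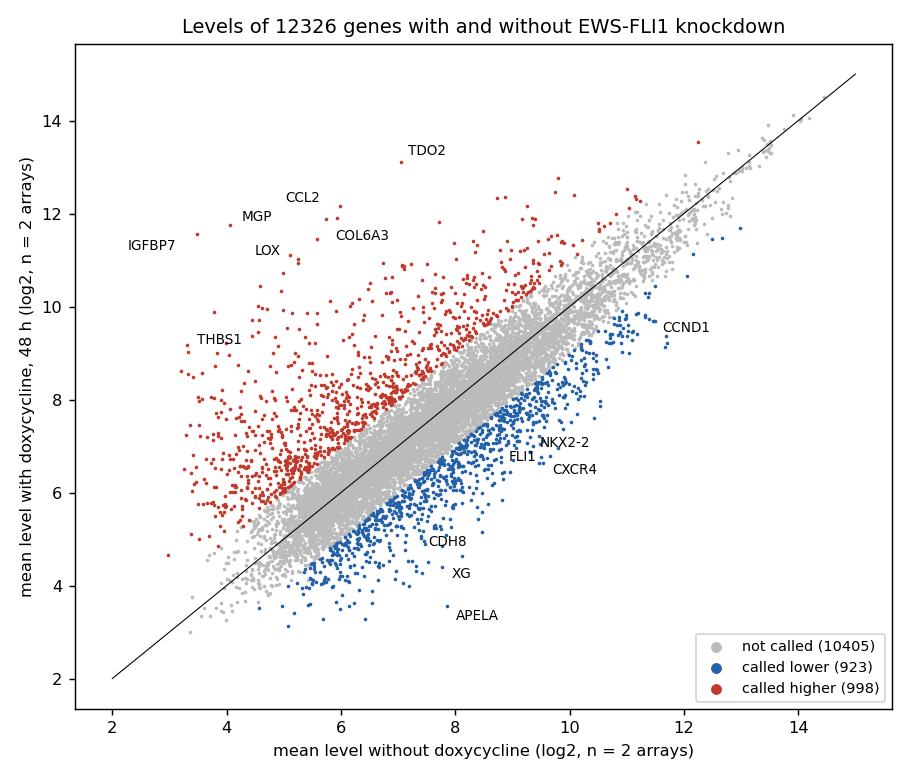
Mean level of each of the 12326 genes without (x axis, log2) and with doxycycline (y axis, log2), 2 arrays in each mean; genes called higher are red, lower blue and the rest grey, and the line marks equal levels. Genes far above the line reach from the left, dim side of the plot up to levels near 12, whereas the falling genes form a narrower band under it.

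IGFBP7, a secreted protein that binds insulin-like growth factors, made the largest rise of all, from 3.39 and 3.56 to 11.53 and 11.59, a log2 fold change of 8.09 (SE 0.12, adjusted p = 5.41e-09, limma; brightest probe set 4.33). MGP, matrix Gla protein, an inhibitor of calcification, rose from 4.10 and 4.03 to 11.65 and 11.85. IGFBP7 went from below the lower quartile to above the upper quartile of its arrays, and MGP started close to the lower quartile. TDO2, the haem enzyme that opens the ring of tryptophan, was already at 6.91 and 7.18 without doxycycline and reached 13.09 and 13.12. The others of the 15 largest rises were CCL2, COL6A3, PTGS2, MMP10, PTX3, IGFBP5, CXCL6, FIBIN, LOX, TNFSF15, THBS1 and CXCL8, all past 5.6 on the log2 scale by the probe set used. They encode chemokines, matrix proteins or enzymes acting on matrix, a prostaglandin synthase, a TNF family ligand and secreted binding proteins.

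APELA, a peptide hormone of the apelin receptor, fell the most, from 7.83 and 7.88 to 3.54 and 3.59, a log2 fold change of −4.29 (SE 0.07, adjusted p = 7.02e-09, limma). SLC35F3, a solute carrier, fell by 3.49, XG, the blood group glycoprotein related to CD99, by 3.38 and CDH8, a neural cadherin, by 3.31. Of these XG went from 7.67 and 7.87 to 4.37 and 4.42. Next came SYNPR, AMER2 (brightest probe set −1.35), PCDH8, DCDC2, E2F8, WDR76 (brightest probe set −1.70), JPH1, DLG2, SCNN1G, SERTM1 and CXCR4, between −3.20 and −2.90. CXCR4, the receptor of CXCL12, fell from 9.51 and 9.57 to 6.80 and 6.48, and its ligand CXCL12 rose from 5.06 and 5.07 to 9.52 and 9.55. Neither the receptor's nor the ligand's groups overlapped.

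Most cell cycle genes fell. The 53 measured genes of origin licensing and the replication fork all had negative log2 fold changes, and 42 of them fell (median −1.53, against −0.06 over all genes). MCM10, which helps to load DNA polymerase α, fell from 10.07 and 10.00 to 7.59 and 7.46 (log2 fold change −2.51, SE 0.07, adjusted p = 6.54e-08, limma). WDHD1, POLE2 and CDC6 followed with −2.48, −2.32 and −2.32. The sliding clamp PCNA fell from 12.05 and 12.08 to 10.69 and 10.61. MCM7 and ORC2 to ORC5 did not pass, with values from −0.92 to −0.45. Deoxynucleotide synthesis fell in 12 of 22 genes (median −1.06), led by the ribonucleotide reductase subunit RRM2 (−2.49) and thymidylate synthase TYMS (−1.95), while DCTD stood at 0.05 and the purine enzyme GART at −0.19.

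Mitotic genes fell to a like degree, with 42 of 49 lower (median −1.62) and none above 0. CDK1, the kinase that starts mitosis, fell from 10.38 and 10.62 to 8.55 and 8.57. CCNB2, a cyclin that partners it, fell from 10.55 and 10.37 to 8.87 and 8.81, and all 4 doxycycline values of these genes were below all control values. The microcephaly gene ASPM (−2.26, brightest probe set −1.41), the kinase NEK2 (−2.25), the checkpoint protein MAD2L1 (−2.23) and the centriole kinase PLK4 (−2.12) led the list. The polo-like kinase PLK1 stood at −0.96, just short of the limit, and the anaphase-promoting complex activator FZR1 at −0.24. At the centromere and kinetochore 26 of 30 genes fell (median −1.57), with the scaffold KNL1 at −2.42 and CENPH at −2.37, and in cohesin and condensin 11 of 22. The condensin subunits NCAPG (−1.97), NCAPH (−1.87), NCAPG2, NCAPD3, NCAPD2 and SMC2 fell, whereas the cohesin loaders NIPBL (−0.12) and MAU2 (0.49) and the subunits STAG1 and STAG2 did not pass.

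Among G1 cyclins, kinases and their factors, 11 of 20 fell and 1 rose. The falls included CCND2 (−2.35) and CCNE2 (−2.13), the phosphatase CDC25A (−2.89, brightest probe set −1.60), SKP2 (−2.55), which tags p27 for breakdown, and MYB (−2.53). E2F8, an atypical repressor of the E2F family, fell from 7.40 and 7.64 to 4.38 and 4.66 (log2 fold change −3.00, SE 0.12, adjusted p = 3.56e-07, limma). CCND1, cyclin D1, an abundant ES transcript, fell from 11.35 and 11.59 to 9.64 and 9.76. The single rise was CDK6, which binds the D cyclins, from 6.27 and 6.49 to 9.70 and 9.72 (log2 fold change 3.33, SE 0.09, adjusted p = 5.55e-08, limma). Its close relative CDK4 stood at −0.22. CDK2 missed the limit at −0.99, with levels of 7.06 and 6.72 against 6.04 and 5.74. MYC and MYCN did not pass, at −0.10 and −0.27. Of the CDK inhibitors, CDKN1A stood at 0.72 and CDKN1B at −0.23, and only the less direct growth arrest genes GADD45G (1.96), BTG1 (1.22) and CCNG2 (1.08) rose in that list of 17, in which CDKN3 and E2F5 fell. In bulk RNA, fewer cells in cycle and less RNA of these genes per cell cannot be told apart.

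Of the 21 measured genes of homologous recombination and the Fanconi anaemia pathway 11 fell (median −1.05), with the exonuclease EXO1 at −2.35, FANCI at −2.06, RAD51AP1 at −2.01 and BRCA1 at −1.78. In mismatch, base excision and end joining repair 4 of 22 fell (median −0.47): NEIL3 (−1.99), POLQ (−1.67), UNG (−1.15) and PARP2 (−1.12, brightest probe set −0.92). PARP1 stood at −0.78, and the end joining proteins XRCC5, XRCC6, XRCC4 and LIG4 at −0.51 to −0.17. In chromatin, EZH2 (−1.15), SUZ12 (−1.03) and PCGF5 (−1.76) were the 3 of 22 polycomb genes that fell, and the maintenance methyltransferase DNMT1 fell by 1.07.

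Of the genes listed as ES surface and phenotype markers, 8 of 16 fell and none rose (median −1.32). Besides XG these were the adhesion receptor ADGRG2 (−2.74), the metalloreductases STEAP2 (−2.19) and STEAP1 (−1.81), LINGO1 (−1.97) and neuropeptide Y with both its measured receptors. NPY1R went from 11.60 and 11.72 to 9.22 and 9.06. NPY fell from 8.28 and 8.35 to 6.62 and 6.70, and NPY5R from 7.99 and 8.18 to 6.39 and 6.17. Caveolin CAV1 (−0.69), neuron-specific enolase ENO2 (−0.98) and chromogranin CHGA (0.11) did not pass. The kinase PRKCB, a protein kinase C, was above the array median on all 4 arrays and fell from 9.62 and 9.71 to 6.83 and 6.72. So did the peptide hormone UTS2, from 9.73 and 9.86 to 7.00 and 6.93, the high mobility group factor TOX2 (−2.84), the phosphatase inhibitor PPP1R1A (−2.83) and the prostaglandin receptor PTGER3 (−2.90, brightest probe set −1.77). Among neuropeptides and hormones as a list, 6 of 24 fell and 4 rose (median 0.02). The falls were APELA, UTS2, PENK (−2.26), CALCB (−1.85), NPY and GRP (−1.56), and the rises were STC1 (3.61), ADM (3.59), EDN1 (2.54) and STC2 (1.17). The genes that rose encode hormones of blood vessels and of calcium and phosphate balance.

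Factors of neural and neural crest development moved both ways, 8 up and 9 down of 25, with a median of 0.00. The falls included NKX2-2, PAX6 (−2.03, brightest probe set −1.03), OTX2 (−1.95), SOX6 (−1.54), PAX7 (−1.49), ISL1 (−1.48) and SOX2 (−1.02). The rises included SOX9 (2.34), TFAP2B (2.25), DLX2 (2.04), SOX4 (1.84), DLX1 (1.70) and SOX11 (1.64). PAX6 went from 7.25 and 7.31 to 5.23 and 5.28, and SOX9 from 7.76 and 7.73 to 10.18 and 10.00. Of the neuronal cytoskeleton and synapse genes 7 of 29 rose, among them the reticulon RTN1 (5.36), the growth cone protein GAP43 (3.82), the dendritic protein MAP2 (3.79, brightest probe set 1.90) and the neurofilament chains NEFL (2.25) and NEFM (1.49), and DPYSL5 (−1.76) and SYT1 (−1.02, brightest probe set −0.63) fell. For guidance of axons, 7 of 25 semaphorins, plexins and neuropilins rose and none fell, with PLXNC1 at 3.43, SEMA3A at 2.92 and NRP2 at 2.72 (brightest probe set 1.36).

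Of the mesenchymal and lineage factors 7 of 25 rose and 2 fell. RUNX2, the master factor of bone, rose from 4.44 and 4.55 to 8.40 and 8.40 (log2 fold change 3.90, SE 0.08, adjusted p = 1.76e-08, limma). CEBPD (3.75), EBF1 (3.25), SNAI2 (2.76), EBF2 (2.63) and PRRX1 (2.42) rose with it, while TWIST1 (−0.45), ZEB1 (0.91) and ZEB2 (−0.59) did not pass. The bone factors DLX5 (−1.16) and DLX6 (−1.75) fell although RUNX2 rose. Of 36 listed bone and cartilage genes 16 were bright enough on some array to be tested, and 9 rose and 3 fell (median 1.41). The osteopontin gene SPP1 stood at 3.84, COL11A1 at 5.15 and the cartilage proteoglycan ACAN at 0.07. Surface markers of mesenchymal stem cells rose in 7 of 13 (median 1.16). VCAM1, an adhesion molecule for leukocytes, rose from 5.73 and 5.89 to 10.14 and 10.09. NT5E, the ectonucleotidase CD73, rose from 7.61 and 7.84 to 11.80 and 11.85, and CD44 (3.77), PDGFRA (2.91), the protease MME (2.68, brightest probe set 1.13) and PDGFRB (1.22) also rose. THY1 and ENG, 2 further defining markers, stood at 0.43 and 0.37, and NGFR at −0.92.

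Each list of matrix genes examined held more rises than falls. Genes dim without doxycycline were tested only if bright on some other array, and those that stayed dim were dropped. The filter thus favours rises in lists with many dim genes, and their shares and medians are not free of it. It kept 15 of 24 listed basement membrane genes, 34 of 45 glycoproteins and proteoglycans and 17 of 23 integrins. Of 26 collagen chains 18 rose and none fell (median 2.01). COL6A3, a chain of the beaded filament collagen, rose from 5.60 and 5.88 to 11.92 and 11.87 (log2 fold change 6.16, SE 0.10, adjusted p = 7.02e-09, limma). Its partners COL6A1 and COL6A2 rose by 2.56 and 2.72. Fibrillar COL3A1 rose from 9.64 and 9.84 to 12.40 and 12.52 and COL1A1 from 5.55 and 5.98 to 8.85 and 9.03 (brightest probe set 1.31), each with no overlap of the groups. COL8A1 (5.01), COL1A2 (4.20) and COL12A1 (3.41) also rose, and the 8 chains not called lay between −0.16 and 0.46. The crosslinking enzyme LOX rose from 5.25 and 5.24 to 11.13 and 10.92. In the basement membrane 11 of 15 genes rose (median 1.84), led by LAMA4 (3.70, brightest probe set 0.14) and nidogen NID1 (3.61), while LAMA2 (−0.02) and agrin AGRN (0.18) did not pass.

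Of 34 matrix glycoproteins and proteoglycans 20 rose and none fell (median 1.27). THBS1, thrombospondin, rose from 3.25 and 3.39 to 8.96 and 9.10, and its other probe sets gave 1.05 and 3.18. POSTN, periostin, rose by 5.26, VCAN, versican, by 5.26, TGFBI by 4.24 and TNC, tenascin C, by 4.06 (brightest probe set 2.01). The probe set used for fibronectin, FN1, rose by 2.56, and its 4 brighter ones gave 0.66 to 0.77. Decorin DCN (0.79) and elastin ELN (0.03) did not pass, nor did aggrecan. Of 33 matrix proteases and inhibitors 16 rose, including the stromelysin MMP10 named above, the plasminogen activators PLAU (3.85) and PLAT (3.39), ADAMTS9 (2.89) and MMP2 (2.52). The collagenase MMP1 stood at 0.18 and the inhibitor TIMP1 at 0.86. Integrins rose in 8 of 17 (median 0.93), the largest being ITGB8 (5.41), ITGA1 (3.95) and ITGA4 (3.10). Of the actin and focal adhesion genes 10 of 31 rose and 2 fell, and of the textbook target genes of YAP and SRF 15 of 26 rose and none fell (median 1.15). TPM1, tropomyosin, rose from 8.80 and 8.93 to 12.33 and 12.39, TAGLN, transgelin, from 5.53 and 5.46 to 8.79 and 8.77 and CCN2, connective tissue growth factor, from 6.43 and 6.60 to 10.55 and 10.48. Smooth muscle actin ACTA2 stood at 0.22, and SRF itself at 0.10.

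Chemokines had the highest median of the lists examined. Of 21 listed, 15 were bright enough to be tested and 14 of these rose (median 4.47), the exception being CXCL16 at 0.15. A chemokine dim without doxycycline was kept only if it was bright on some other array, and those that stayed dim were dropped. The filter thus favours rises here, and the share and median are not free of it. CCL2, which draws monocytes, rose from 5.92 and 6.03 to 12.15 and 12.18 (log2 fold change 6.19, SE 0.09, adjusted p = 5.23e-09, limma). CXCL8, interleukin 8, which draws neutrophils, rose from 5.13 and 5.36 to 10.79 and 11.10. All 4 doxycycline values of these genes were more than 5 above their controls. CXCL1, CXCL6, CCL20, CXCL2, CCL7 and CXCL10 rose by 5.46, 5.87, 5.39, 5.23, 4.92 and 3.38. CXCL1, CXCL2 and CXCL3 are near-identical, so their probe sets may share signal. Of 23 listed cytokines and prostaglandin enzymes 16 passed the same filter, and 13 of these rose (median 2.43). IL6 rose from 4.58 and 4.51 to 9.44 and 9.47 and IL1B from 6.37 and 6.56 to 10.37 and 10.41. PTGS2, cyclooxygenase 2, rose from 3.76 and 3.80 to 9.86 and 9.89. IL33 (4.44), IL1A (4.00) and LIF (3.81) rose as well, but IL11 (0.29) and CSF3 (0.20) did not. IL1R1, the receptor of interleukin 1, rose by 3.59 and its accessory chain IL1RAP fell by 2.43 (brightest probe set −1.35).

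In a list of NF-kB subunits and feedback genes that also holds the adhesion molecules VCAM1 (4.31) and ICAM1 (3.78), 15 of 20 rose (median 2.03). The precursor subunits NFKB1 and NFKB2 rose by 2.08 and 2.06, and RELB by 1.35. The inhibitors of the pathway NFKBIZ (3.72), TNFAIP3 (3.15) and NFKBIA (2.00) rose too, with TNFAIP3 at 7.38 and 7.46 without and 10.58 and 10.57 with doxycycline. The subunits RELA (0.60) and REL (0.53) did not pass. Of 32 listed complement and coagulation genes 21 passed the filter, which favours rises here too, and 14 of these rose (median 1.52). Among them were A2M (2.70), TFPI2 (2.65), CD59 (2.62, brightest probe set 1.51) and C3 (2.18), and CD55 stood at −0.60. Interferon-stimulated genes were mixed, with 12 of 26 higher (median 0.60). ISG20 (2.88), GBP2 (2.41, brightest probe set 1.58), IRF1 (1.92) and IFITM1 (1.79) rose, whereas the classical members ISG15 (0.09), IFIT1 (−0.32), OAS1 (0.44) and MX2 (−0.20) did not pass. In antigen presentation HLA-B (1.25) and HLA-C (1.23), whose probe sets can cross-hybridise, PSMB8 (1.37) and TAPBP (1.21) rose among 15 genes. The 3 blood cell markers that were tested, CD3D, CSF1R and HBB, stood between −0.07 and 0.13 beside these genes. Of the 7 endothelial markers tested, KDR (2.40) and EMCN (1.47) rose and PECAM1 stood at 0.04, and their part in the rises was not tested.

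Genes that dampen or relay growth factor signals rose in 10 of 20 for MAPK feedback, with CCND1 the 1 fall (median 0.74). SPRY1, a Sprouty inhibitor of receptor kinase signalling, rose from 5.24 and 5.05 to 9.84 and 9.89 (log2 fold change 4.72, SE 0.08, adjusted p = 7.02e-09, limma). PHLDA1 (4.91), ERRFI1 (3.59), SPRY2 (2.85) and SPRED1 (1.83) rose as well, and the MAPK phosphatases DUSP1, DUSP4 and DUSP5 rose by 1.10 to 1.35. ETV5 (−0.96) and EGR1 (0.36) did not pass. Of the immediate early genes 10 of 23 rose and 1, EGR4 (−1.17, brightest probe set −0.20), fell (median 0.73), with NR4A2 (3.98) and FOSL2 (3.65) far ahead of JUNB (1.14) and FOS (1.20), and NR4A1 and ATF3 near 0 (0.10 and 0.16). In the TGF-β superfamily 18 of 40 rose and none fell (median 0.72): the activin chain INHBA (4.34), TGFB2 (4.10), FSTL1 (2.73), GDF15 (2.38), the BMP antagonist GREM1 (2.30) and the inhibitory SMAD7 (1.84) were among them, and TGFB1 stood at 0.44, SMAD2 at 0.12 and SMAD4 at −0.18.

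Wnt genes gave 10 rises, or 6 under a stricter filter on dim probe sets, and 1 fall of 31. The inhibitor DKK1 rose from 3.90 and 3.69 to 8.62 and 8.83, and its family member DKK2 fell from 9.81 and 9.97 to 7.31 and 7.41. The groups overlapped for neither gene. DKK3 (2.18) and the receptor ROR2 (1.84) rose, and AXIN2, a feedback target of β-catenin, stood at −0.38. Opposite calls were found in other families too. The Notch ligand JAG1 rose by 2.30 and JAG2 fell by 1.15, and the phosphodiesterases PDE4B (3.86) and PDE4D (1.93) rose while PDE4A (−1.01) fell. The protocadherin PCDH18 rose by 2.21 and PCDH8 fell by 3.15, and the neuronal kinesin KIF5C rose by 3.35 while the mitotic kinesins fell. Of 27 growth factor receptors 10 rose and 4 fell. KIT, the receptor of stem cell factor, fell from 7.93 and 7.99 to 5.88 and 5.61, and PDGFRA, a receptor of the same kinase family, rose from 5.10 and 5.00 to 7.88 and 8.04. FGFR3 (−1.48), FGFR4 (−1.14) and ALK (−1.04) also fell. EGFR rose by 2.56 on the probe set used, and its brightest probe set gave −0.31, so its direction is not settled.

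Of the genes that bind or relay insulin-like growth factors 6 of 28 rose and none fell. IGFBP7, IGFBP5 (5.89), IGFBP3 (4.95) and IGFBP2 (1.53) rose, but IGF1R (0.92), INSR (0.06), IRS1 (0.28), AKT1 (−0.08) and MTOR (−0.19) did not pass. The other 2 that rose were GSK3B (1.38, brightest probe set 0.96) and FOXO1, a forkhead factor held in check by AKT. FOXO1 rose from 5.86 and 5.81 to 7.35 and 7.04 (log2 fold change 1.36, SE 0.11, adjusted p = 1.62e-05, limma), and its other probe sets gave 1.85 and −0.04. The probe set at −0.04 was below the lower quartile on all 4 arrays, so it had little signal to change. FOXO3 stood at 0.74, at 9.55 and 9.66 against 10.38 and 10.31, below the fold change limit although the groups did not overlap. Besides FLI1, the ETS factors ETS2 (−1.96, brightest probe set −1.09) and ELK4 (−1.29, brightest probe set 0.28) were lower and ETV6 (1.16), ELK3 (1.06) and ELF3 (1.04) higher of the 18 measured, FLI1 among them.

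In metabolism, enzymes that make serine, glycine and one-carbon units fell in 10 of 19 (median −1.03). PSAT1 (−2.04), PSPH (−1.76) and PHGDH, the 3 enzymes of serine synthesis, all fell, PHGDH from 10.58 and 10.33 to 9.01 and 8.91. The serine carrier SLC1A4 (−1.72), CBS (−1.47) and CTH (−1.43) fell with them, and SHMT2 stood at −0.90. Cholesterol synthesis fell in 8 of 25 genes of its list, with HMGCS1 (−1.76) and IDI1 (−1.53) first, and the 2 that rose, ABCA1 (2.37) and ABCG1 (1.80), export cholesterol. The list's regulators SREBF1 (−0.52), SREBF2 (−0.36) and SCAP (−0.06) did not pass. Of the fatty acid genes ELOVL6 (−2.13), SCD (−1.63), FASN (−1.25) and FADS2 (−1.05) fell. Around tryptophan and NAD 6 of 15 rose and 1 fell. After TDO2 came NNMT, which methylates nicotinamide (4.51), KYNU (3.50, brightest probe set 0.76), DPYD, which breaks down pyrimidines (2.78), NAMPT (2.50) and UPP1 (2.36). KMO, which hydroxylates kynurenine, fell from 7.17 and 7.17 to 4.54 and 4.52. Hypoxia response genes rose in 10 of 26 (median 0.58): EPAS1, the factor HIF-2α, from 5.41 and 5.41 to 9.80 and 9.92, together with LOX, ADM, BHLHE40 (3.21) and P4HA2 (2.87). HIF1A (0.31), VEGFA (−0.31) and SLC2A1 (0.56), 3 defining members, did not pass.

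Metal and calcium binding proteins rose as clusters. Of 8 metallothioneins 6 rose, MT1X from 8.30 and 8.32 to 11.44 and 11.39 and MT2A from 9.23 and 9.27 to 12.21 and 12.14. Metallothioneins are near-identical in sequence and may share probes, so the members' values are not independent. The brain and squamous forms MT3 and MT4 stood at 0.06 and −0.03. Of the 9 symbols that start with S100, 7 rose, led by S100A10 (3.16) and S100A4 (2.72), and S100A1 and S100PBP, which encodes a binding protein, did not. Among 30 genes of the BCL2 family and caspases 8 rose and none fell, but 4 rose with the brightest probe sets. BCL2 (2.07, other probe set 0.16) and the inflammatory caspase CASP1 (2.10, brightest probe set 0.86) were largest. BMF (1.11), which promotes death, rose together with BCL2 and BIRC2 (1.27), which oppose it, while MCL1, BAX and BCL2L1 stood between −0.10 and 0.40. Textbook p53 targets gave 5 rises and 1 fall of 21, with PLK2 (3.63) and GDF15 up and CDKN1A (0.72) and MDM2 (−0.78) short of the limit. A673 is known to lack functional p53.

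Several lists held few called genes. Of 58 cytosolic ribosomal protein genes 0 rose and 1 fell. Of 23 HOX genes 1 rose, HOXD10 (1.03, brightest probe set 0.71), and 1 fell, HOXD13 (−1.72). The 21 reference genes had a median of −0.20, with GAPDH at −0.04, ACTB at 0.18 and HPRT1 the 1 called, just past the limit. Of 25 genes of the BAF complex 1 rose and 0 fell, and of 28 genes of the unfolded protein and ATF4 response 1 rose and 1 fell. These shares were under the background of 8.1% higher and 7.49% lower genes.

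Runs of called genes along the chromosomes were counted as a description. Genes tested were put in order by their RefSeq position, so neighbours are neighbours only among tested genes. Runs of at least 3 neighbours called the same way were 19 runs of 3 higher genes, 13 runs of 3 lower ones and 6 longer ones. With 8.1% of genes higher and 7.49% lower some runs occur without any grouping, and their expected number was not worked out. On chromosome 16 the 6 metallothioneins MT2A, MT1E, MT1F, MT1G, MT1H and MT1X all rose. On chromosome 4 the 5 chemokines CXCL8, CXCL6, CXCL1, CXCL3 and CXCL2 rose, and on chromosome 1 S100A4, S100A3, S100A2, S100A16 and S100A13. The run of lower genes that was longest joined NAF1, NPY1R, NPY5R, TMA16 and MARCHF1 on chromosome 4, which holds both neuropeptide Y receptors. Runs of 4 rose on chromosome 4, GUCY1A1, GUCY1B1, TDO2 and CTSO, of which the first pair are the subunits of the receptor for nitric oxide, and on chromosome 5, CXCL14, FBXL21P, TGFBI and SMAD5. Runs of 3 of gene families included CCL2, CCL7 and CCL8, as well as GBP and IFITM genes, whose copies are near-identical in part.

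To set the calls beside the DNA at the start of these genes, RefSeq promoter windows of 300 bases (250 before and 50 after the start, build GRCh38.p14) were searched on both strands for 12 short motifs. Windows were found for 9989 of the 12326 genes, 794 of those that rose and 752 of those that fell. A match is a stretch of letters and not a site shown to be used. The windows below were chosen because they hold the motifs in question. CCNB2, CXCL8, MMP10 and CCN2 were described above, whereas MCM3 and SELENOP were not, and their values follow the windows. Capitals mark, in the window of CCNB2 the CHR (TTTGAA) and the CCAAT box (CCAAT), in that of MCM3 the E2F motif (TTCCCGC) and the CCAAT box, in those of CXCL8 and MMP10 the AP-1 motif (TGANTCA) and the TATA box (TATAAA), in that of CCN2 the TEAD motif (GGAATG) and the TATA box, and in that of SELENOP the forkhead motif (TGTTTAC) and the TATA box, each on either strand.
CCNB2 (chr15:59104896-59105195, plus strand): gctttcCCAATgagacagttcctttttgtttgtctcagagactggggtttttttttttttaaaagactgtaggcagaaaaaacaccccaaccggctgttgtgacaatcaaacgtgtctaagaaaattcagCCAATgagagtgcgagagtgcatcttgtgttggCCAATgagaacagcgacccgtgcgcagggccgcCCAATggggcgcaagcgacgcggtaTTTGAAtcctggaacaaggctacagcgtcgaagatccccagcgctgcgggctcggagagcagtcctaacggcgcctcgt
MCM3 (chr6:52284693-52284992, minus strand): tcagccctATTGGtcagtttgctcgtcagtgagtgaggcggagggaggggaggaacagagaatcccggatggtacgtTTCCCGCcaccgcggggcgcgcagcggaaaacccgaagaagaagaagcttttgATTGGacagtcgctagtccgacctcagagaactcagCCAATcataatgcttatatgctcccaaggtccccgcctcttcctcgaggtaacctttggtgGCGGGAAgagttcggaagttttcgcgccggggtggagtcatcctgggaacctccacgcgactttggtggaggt
CXCL8 (chr4:73740319-73740618, plus strand): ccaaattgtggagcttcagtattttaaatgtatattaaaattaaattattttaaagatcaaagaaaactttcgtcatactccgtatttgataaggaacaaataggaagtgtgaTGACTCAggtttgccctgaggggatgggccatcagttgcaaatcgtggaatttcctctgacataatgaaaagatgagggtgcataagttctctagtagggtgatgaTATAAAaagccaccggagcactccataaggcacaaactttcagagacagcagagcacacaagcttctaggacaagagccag
MMP10 (chr11:102780579-102780878, minus strand): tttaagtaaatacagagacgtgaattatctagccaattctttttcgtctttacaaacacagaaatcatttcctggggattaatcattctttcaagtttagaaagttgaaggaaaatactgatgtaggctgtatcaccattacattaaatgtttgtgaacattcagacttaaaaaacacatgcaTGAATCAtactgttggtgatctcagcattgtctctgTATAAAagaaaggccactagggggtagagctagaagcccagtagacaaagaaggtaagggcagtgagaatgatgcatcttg
CCN2 (chr6:131951323-131951622, minus strand): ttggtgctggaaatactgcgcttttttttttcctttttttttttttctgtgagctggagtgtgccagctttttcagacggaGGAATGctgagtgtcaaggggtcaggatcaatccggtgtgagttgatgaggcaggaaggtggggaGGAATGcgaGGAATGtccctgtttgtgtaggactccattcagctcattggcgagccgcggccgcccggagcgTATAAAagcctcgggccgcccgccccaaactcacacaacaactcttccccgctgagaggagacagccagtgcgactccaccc
SELENOP (chr5:42811843-42812142, minus strand): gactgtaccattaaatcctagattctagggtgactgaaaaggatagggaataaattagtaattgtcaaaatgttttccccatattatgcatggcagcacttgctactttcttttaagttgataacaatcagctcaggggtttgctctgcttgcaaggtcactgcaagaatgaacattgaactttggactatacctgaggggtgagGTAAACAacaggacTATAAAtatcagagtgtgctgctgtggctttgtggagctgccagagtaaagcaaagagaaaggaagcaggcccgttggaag

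The CCNB2 window, of a gene that fell by 1.63, held 4 CCAAT boxes, and its CHR began 29 bases before the start. The MCM3 window, of a gene that fell by 1.49, held E2F motifs that began 173 and 23 bases before it. In CXCL8 the AP-1 motif began 137 and the TATA box 31 bases before the start, and in MMP10 67 and 31. CCN2 had 3 TEAD motifs, 169, 104 and 95 bases before the start. SELENOP, a selenium transport protein that rose from 3.35 and 3.48 to 6.71 and 6.89, had its forkhead motif 45 bases before the start.

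The motif shares are given as a description, with no test. A CHR was in 20.5% of windows of genes that fell, 9.86% of all windows and 13.6% of those that rose. The E2F motif was in 15.6%, 10.4% and 5.79%, and the CCAAT box in 44.4%, 36.5% and 31.9%, in the same order. Windows of the mitosis list held a CHR in 27 of 41 (65.9%) and the E2F motif in 2 (4.88%), and those of the replication list held a CHR in 2 of 46 (4.35%) and the E2F motif in 18 (39.1%). A TATA box was in 11.7% of windows of genes that rose and 5.93% of all, and an AP-1 motif in 8.69% and 4.64%. The ETS core CGGAAG was in 30.2% of windows of genes that fell, 32.5% of all and 16.2% of those that rose, and the forkhead motif in 2.26%, 2.25% and 3.40%. Median G+C was 64.3% for lower, 65.3% for all and 64.7% for higher genes. The TEAD motif GGAATG was in 12.6% of windows of genes that rose, 10.8% of all and 8.78% of those that fell. It and the ETS core both hold GGAA, but the base after it differs, so no GGAA counts for both.

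The same contrast was measured on 4 other arrays of the series, of A673sh cells with an shRNA against FOXO1, with and without doxycycline. These share no array with the sh-scrambled comparison, but the processing was shared. The probe set of each gene was chosen by its spread over all arrays of the series, the sh-FOXO1 arrays included. That choice can favour probe sets that move with doxycycline in both kinds of cells. Both contrasts also used the same pooled variance of each gene. The agreement given below is therefore not independent of the selection. The background in sh-FOXO1 cells was 896 genes (7.27%) higher and 786 (6.38%) lower. Of the 998 genes that rose in sh-scrambled cells 747 (74.8%, and 83.4% of the 896) also rose in sh-FOXO1 cells, and of the 923 that fell 658 (71.3%, and 83.7% of the 786) also fell. No gene was called in opposite directions, and 990 of the 998 and all 923 had the same sign. The cells differ by the FOXO1 shRNA, so this is the same measurement in a changed setting and not a plain repeat. The Pearson correlation of the log2 fold changes across the 12326 genes, which are not independent replicates, was 0.92. Among genes that fell, APELA stood at −4.44 in sh-FOXO1 cells beside −4.29, and CCND1 at −2.14 beside −1.77. Among the largest rises MGP reached 6.97 and LOX 5.04 there, but CXCL8 1.77 and CCL2 3.00. Without doxycycline CXCL8 was already at 8.10 and 8.71 and CCL2 at 8.87 and 9.08 in sh-FOXO1 cells. With it they reached 10.03 and 10.32, and 11.99 and 11.96, so the CCL2 levels with doxycycline lay close to those of sh-scrambled cells. A test of the difference in the same model called 318 of the 1921 genes, at an adjusted p under 0.05 in limma and a log2 difference past 0.7. The rise was smaller in sh-FOXO1 cells for 222 genes and larger for 39, and the fall was smaller for 47 and larger for 10. The 1921 genes were selected by their change in sh-scrambled cells, which enters the difference. That selection favours smaller changes in sh-FOXO1 cells both ways, so the imbalance is partly set in advance. For 127 of the 222 smaller rises the larger part of the difference was a higher mean level without doxycycline in sh-FOXO1 cells, and for 95 it was a lower mean level with doxycycline. FOS, which rose by 1.20 in sh-scrambled cells, stood at −0.78 in sh-FOXO1 cells (adjusted p = 0.0134, limma), and SERPINB7 at −0.39 beside a rise of 1.90. Both also stood higher without doxycycline in sh-FOXO1 cells, FOS at 8.32 and 7.70 and SERPINB7 at 5.87 and 6.07.

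**Figure D2:**
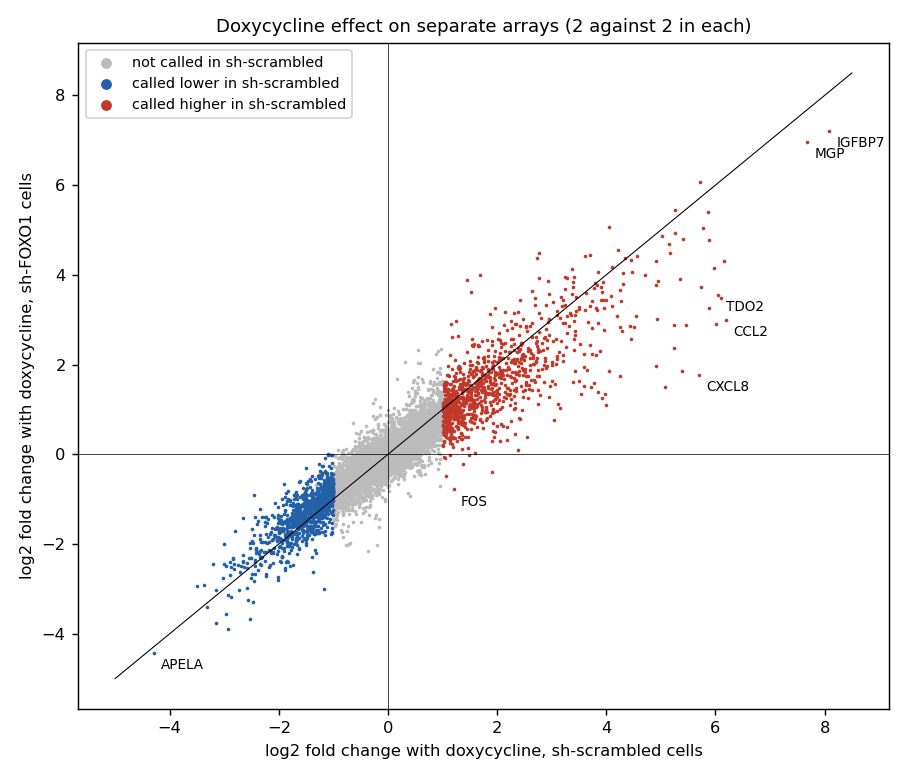
Log2 fold change with doxycycline of the 12326 genes in sh-scrambled cells (x axis) and in sh-FOXO1 cells (y axis), each from 2 against 2 arrays, coloured by the call in sh-scrambled cells; the diagonal marks equal change. Falling genes lie close to the diagonal, and CXCL8, CCL2 and TDO2 lie below it among the largest rises.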

How the data were processed

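RNA of A673sh cells was hybridized to 11 arrays (Affymetrix HG-U133 Plus 2) in 7 groups taken from the sample labels, of which the comparison uses 4 arrays in 2 groups. The authors deposited 1 normalized log2 value per probe set and array. The log base is taken as 2 from the range of 2.60 to 14.6, and the preprocessing and normalization methods are not given in the sources used here. Scanner files were not used here.

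Of 54675 probe sets 41097 have 1 gene symbol in the platform annotation, 1801 several and 11777 none. Symbols were updated through the gene identifier to RefSeq GRCh38.p14. A probe set was kept when its value reached the 60th percentile in 1 array or more, and the kept probe set that varied most between arrays by interquartile range stood for its gene, which left 12326 genes. All arrays were fitted together by group in limma 3.58.1 under R 4.3.3, with Benjamini-Hochberg adjustment over all genes. The fit has 4 residual degrees of freedom and was tested on simulated data. The replicate numbers are not stated to mark a shared culture or day, and with 2 numbers a group they were not used as a block. Alternatives changed the filter, probe set, normalization, arrays in the fit, replicate block and call limits, and left out each array in turn, where the lone array of a group is assumed to vary like the other groups.

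Named genes are those the study names, the 15 with the largest change in each direction, the 12 largest each way among genes at or above the median of all 4 arrays, and in each list or family up to 4 members called in each direction plus defining members that did not pass. A further 73 genes are named as examples of their list and were chosen after their values were seen. The comparison, the gene lists and the motifs were chosen with earlier results of these data known.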

Additional observations from a re-analysis of the deposited data

Results flagged for a closer look

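For 22 of the 52 genes with the largest changes or named by the study, the change with doxycycline differed between sh-FOXO1 and sh-scrambled cells by a test of the difference itself (limma interaction, adjusted p under 0.05 and a log2 difference past 0.7). Most of the 52 were picked for the size of their change in sh-scrambled cells, which enters the difference. Smaller changes in sh-FOXO1 cells are therefore favoured by the selection. The differences below are the change in sh-FOXO1 cells minus that in sh-scrambled cells on the log2 scale, 2 arrays in each of 4 groups. Chemoattractants and mediators of inflammation differed with CXCL8 at −3.92, CCL2 at −3.19, CXCL6 at −2.61, PTGS2 at −2.60, TNFSF15 at −2.01 and PTX3 at −1.83. Of enzymes acting on tryptophan or matrix, MMP10 stood at −3.10, TDO2 at −2.51 and LOX at −0.74. Matrix and secreted proteins differed by −2.20 (TNC), −1.85 (COL6A3), −1.12 (COL1A2), −1.12 (IGFBP5), −0.88 (IGFBP7) and −0.72 (MGP). The hypoxia factor EPAS1 differed by −1.87, the cytokine receptor OSMR by −1.45, FILIP1L by −1.54, and the surface enzymes MME and NT5E by −1.02 and −0.81. All of these rose in both kinds of cells. For 14 of these 20 genes the larger part of the difference was a higher mean level without doxycycline in sh-FOXO1 cells. MMP10 stood 3.01 higher there without doxycycline and −0.09 apart with it, and TDO2 was at 9.51 and 9.78 there against 6.91 and 7.18 without doxycycline, and 0.09 apart with it. For the other 6, CXCL6, EPAS1, PTGS2, OSMR, MME and LOX, it was a lower mean level with doxycycline, as in CXCL6 (−2.68) and EPAS1 (−1.76). Of the genes that fell, the fall of WDR76 was smaller in sh-FOXO1 cells by 0.99, and that of SCNN1G larger, at −0.95.

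Among 2525 kept probe sets with no gene symbol, which no comparison above uses, 150 were called higher and 106 lower with doxycycline in sh-scrambled cells by the same limits. Among 1090 with several symbols 56 were higher and 55 lower. All these shares were under the background of 8.1% higher and 7.49% lower among the named genes tested.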

How the results depend on the processing

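The counts of 998 higher and 923 lower genes stayed within 1.5 times under every alternative but the call by adjusted p alone, which gave 3222 and 4315 since it drops the fold change limit. They were 1055 and 944 with no filter on dim probe sets (19775 genes), 778 and 747 with a stricter one (8699 genes), 866 and 779 with the brightest probe set per gene, 1018 and 925 after quantile normalization, and 965 to 1068 and 869 to 1055 without 1 array. Same-numbered arrays deviated together (r = 0.44 to 0.62 over the group pairs), and a paired fit with a replicate block gave 998 and 927 and changed no call of a named gene. Without sh-scrambled replicate 2 and without the doxycycline replicate 1, ASPM lost its call at −1.53 and −1.54.

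Of 498 named genes, 458 kept their side of the limits with the brightest probe set, 34 lost the call and 6 changed sign: ELK4 to 0.28 (also under the stricter filter), SMARCE1 to −0.10, EGFR to −0.31, CLCN3 to 0.016, GPR107 to 0.35 and SRSF3 to −0.25, with SRSF3 at −0.67 after quantile normalization. CDK2 passed the limit at −1.04 after quantile normalization and at −1.01 with each array centred on its median. The causes of these changes were not tested. Signal near background limits the size of changes in genes that start or end dim.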

Other observations

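Some groups that no account above covers are given here, beside the background of 8.1% higher and 7.49% lower genes. Of 21 nucleoporins 7 (33.3%) fell (median −0.72), among them NUP58 (−1.81), NUP35 (−1.56) and NUP155 (−1.54). Of 21 citrate cycle genes the cytosolic enzymes ME1 (−1.68) and IDH1 (−1.42) and mitochondrial ME2 (−1.25) fell (14.3%). Amino acid transport and tRNA charging gave 6 falls (23.1%) and 1 rise (3.85%) of 26. The falls included the carriers SLC6A15 (−1.40) and SLC7A5 (−1.22). The rise was the cystine carrier SLC7A11 (1.10), which lost its call at 0.82 without sh-scrambled replicate 1. Of 38 lysosome and autophagy genes 6 (15.8%) rose and none fell, among them WIPI1 (2.87), CTSS (2.66) and CTSO (2.53). Of 15 clock genes 3 (20.0%) rose, NPAS2 (3.42), BHLHE40 (3.21) and RORA (2.16), and BMAL2 (−1.29) fell (6.67%). In the heat shock list the small chaperone CRYAB rose by 3.08, and the median of 18 genes was −0.34. HSPD1 and HSPH1 fell (11.1% of the list), but without sh-scrambled replicate 2 they stood at −0.91 and −0.93. Of 16 cadherins and junction genes 2 rose and 2 fell (12.5% each). CDH2, N-cadherin, rose by 2.05 and desmoplakin DSP by 1.95, while cadherin CDH8 fell by 3.31 and claudin CLDN1 by 2.01. The 75 mitochondrial ribosomal genes had a median of −0.46, against −0.06 over all genes, with 2 falls (2.67%) and 1 rise (1.33%).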
